A study of Homo sapiens with 6 samples.

Results

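The keratin family was read in SUM159 cells with stable knockdown of the type III TGF-β receptor (TβRIII-KD) and in control SUM159 cells. Its members were all genes whose symbol is KRT followed directly by a digit, which leaves out the keratin-associated proteins, and each gene was read from the transcript cluster with 1 symbol and the highest mean signal. This rule gave 52 of the 18276 genes measured. They are 48 genes for keratin proteins, 3 pseudogenes and 1 antisense transcript, KRT10-AS1. The rule used no measured difference between the groups.

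SUM159 is an established human cell line from a triple negative breast cancer, used in the study as a model of the mesenchymal stem-like subtype. Both groups were grown in matrigel, a gel of basement membrane proteins, and collected at day 6 of three-dimensional culture, with 3 TβRIII-KD arrays and 3 control arrays and no other treatment. The knockdown cells carried a stably expressed lentiviral short hairpin RNA against TGFBR3, the gene for TβRIII. Of several hairpins the study made, its text names a single one, also called TβRIII-KD, for the experiments that followed the first tumor tests, and with a single hairpin its off-target effects and those of the knockdown cannot be told apart. The array labels do not say what the control cells carried, and nothing says that its arrays came from separate cultures, so a p-value here speaks of differences among these arrays, and their spread may be purely technical. TβRIII-KD 3 stood apart from the other TβRIII-KD arrays on the second principal component of all transcript clusters, and results that rest on it are also given without it. Values are log2 signals of Affymetrix Human Gene arrays, on which the probes of a transcript cluster are summarized into 1 value for a gene. The signal of a gene depends on its probes as well as its RNA, so signals give no order of abundance between genes.

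Keratins are the intermediate filament proteins of epithelial cells. A filament is built from pairs of an acidic type I keratin and a neutral to basic type II keratin, and neither type forms filaments alone. Which pair a cell makes marks its kind of epithelium. KRT5 and KRT14 form the filaments of the basal layer of stratified epithelia and of the basal cells of the breast, KRT8 and KRT18 those of simple epithelia such as the luminal cells of the breast, and the hair keratins those of the hair shaft and the nail. Type II genes and KRT18 lie together on chromosome 12, and the other type I genes lie together on chromosome 17.

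Of the 52 members, 2 passed the cutoff and both were lower in TβRIII-KD cells, namely KRT75 and KRT5. None was higher at the cutoff, which was an adjusted p under 0.05 with an absolute log2 fold change over 0.5 (limma, Benjamini-Hochberg adjustment over all transcript clusters). Over all 18276 genes the same cutoff called 284 lower, or 1.55%, and 141 higher, or 0.772%, which is 2.33% in either direction. An unadjusted limma p under 0.05 was found in 7 of the 52 members (13.5%), against 2859 of all genes (15.6%). By the methods' t-test this count was 6 members (11.5%), against 2529 of all genes (13.8%), and after Benjamini-Hochberg adjustment it was 0 members, against 21 of all genes. The median log2 fold change of the members was 0.03, beside 0.01 over all genes. The family's median thus lay near that of all genes, and both calls were of type II keratins. In a bulk sample, fewer cells that make a keratin and less keratin RNA per cell cannot be told apart.

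The promoters of KRT75 and KRT5 are shown because these are the 2 members past the cutoff. Each is the 250 bases before the RefSeq start of the gene in GRCh38.p14, 5′ to 3′ on the minus strand of chromosome 12, with motif matches in capitals.
KRT75, chr12:52434372-52434621: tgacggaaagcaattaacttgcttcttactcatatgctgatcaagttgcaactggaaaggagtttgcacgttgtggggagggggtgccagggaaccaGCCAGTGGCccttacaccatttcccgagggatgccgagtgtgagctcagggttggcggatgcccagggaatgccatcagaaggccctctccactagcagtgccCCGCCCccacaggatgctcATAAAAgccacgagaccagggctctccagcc
KRT5, chr12:52520395-52520644: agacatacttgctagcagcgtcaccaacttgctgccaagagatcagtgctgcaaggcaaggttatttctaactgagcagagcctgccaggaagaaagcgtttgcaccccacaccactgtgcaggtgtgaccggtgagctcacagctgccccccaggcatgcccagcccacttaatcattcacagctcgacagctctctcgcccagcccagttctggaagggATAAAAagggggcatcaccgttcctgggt
The capitals mark, in KRT75, a match to GCCNNNGGC (the AP-2 motif) at 153 to 145 bases before the start, CCGCCC (the GC box GGGCGG read on the opposite strand) at 50 to 45 bases and ATAAAA at 31 to 26 bases, and in KRT5 only ATAAAA at 29 to 24 bases. The ATAAAA motif resembles the core of the TATA box and shares bases with TATAAA where that occurs. It was added after these sequences had been read.

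Motifs were searched on both strands of the 250 bases before the start of 14160 genes, of which 34 were members. ATAAAA was found in 21 of the 34 member promoters (61.8%), against 11.0% of all promoters. The 21 include KRT75 and KRT5, whose sequences had been read before this motif was added. TATAAA was found in 19 (55.9%), against 8.6% of all. GGGCGG was found in 5 (14.7%), against 57.6% of all. GCCNNNGGC was found in 5 (14.7%), against 24.8% of all. The ETS core GGAAGT was found in 4 (11.8%), against 21.7% of all, and the AP-1 motif TGANTCA in 0, against 4.9% of all. Member promoters thus held TATA-like letters more often and GC boxes less often than the promoters of all genes, as a description of their letters only. KRT75 holds both a TATA-like stretch and a GC box, and the other members with GGGCGG were KRT9, KRT37, KRT38 and KRT10-AS1.

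KRT75, a type II keratin of the companion layer between the outer and inner root sheaths of the hair follicle, had the largest difference of the family. Its log2 signal was 9.03, 8.68 and 8.44 on the TβRIII-KD arrays, against 10.30, 10.54 and 10.47 on the control arrays. The groups did not overlap, and the highest TβRIII-KD array lay 1.27 below the lowest control array. The means were 8.72 ± 0.29 in TβRIII-KD cells and 10.44 ± 0.13 in control cells (SD, n = 3 each). KRT75 (transcript cluster 7963396) fell by 1.72 on the log2 scale (SE 0.14, 95% interval -2.04 to -1.39, limma adjusted p = 0.000735), a signal 3.29-fold lower in TβRIII-KD cells. By size it ranked 26 among the 284 falls past the cutoff. The exact permutation test over the 6 arrays gave a two-sided p = 0.1, below which a design of 3 against 3 arrays cannot go.

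KRT5 was the only member of the basal layer class past the cutoff. Its log2 signal was 7.11, 7.37 and 7.30 on the TβRIII-KD arrays, against 7.93, 8.47 and 8.16 on the control arrays. Every TβRIII-KD array again lay below every control array, here with a gap of 0.56. The means were 7.26 ± 0.14 in TβRIII-KD cells and 8.19 ± 0.27 in control cells (SD, n = 3 each). KRT5 (transcript cluster 7963427) fell by 0.93 (SE 0.14, 95% interval -1.24 to -0.61, limma adjusted p = 0.00924), a signal 1.90-fold lower in TβRIII-KD cells. With 1 array left out at a time, KRT75 kept a log2 fold change between -1.87 and -1.58 and KRT5 one between -1.05 and -0.78, and both stayed past the cutoff each time. Neither passed by the methods' t-test after Benjamini-Hochberg adjustment, at 0.0884 for KRT75 and 0.176 for KRT5. Limma is the test that the paper names for these arrays.

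**Figure D1:**
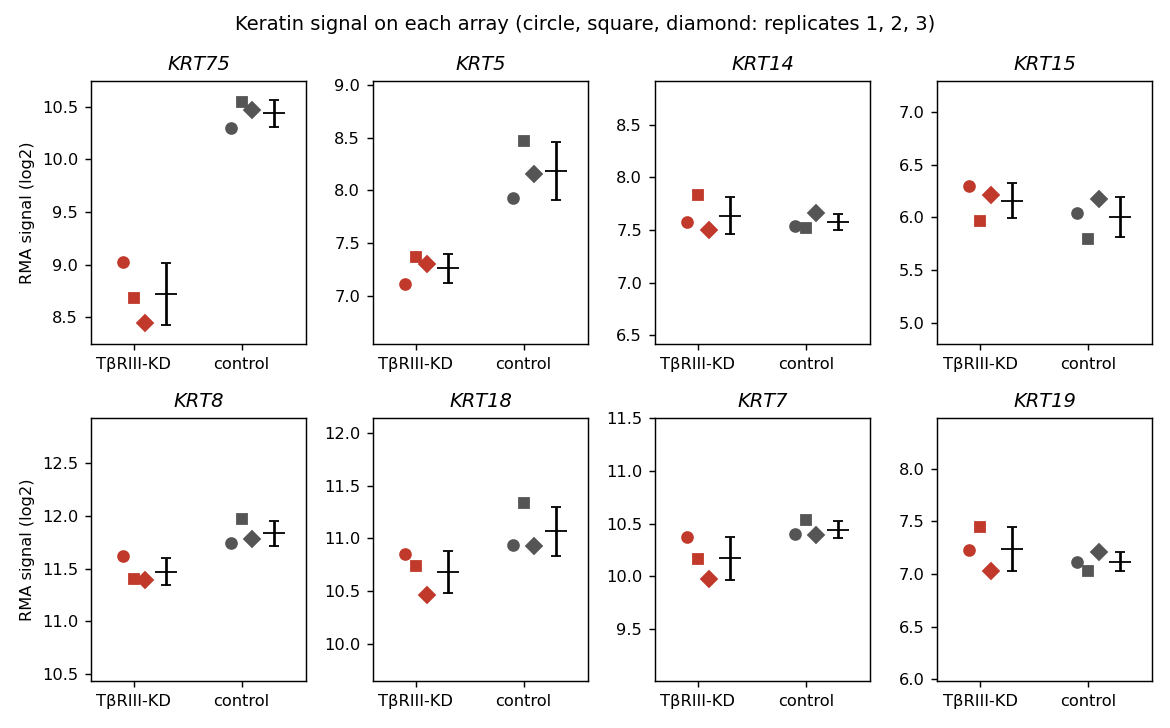
RMA signal (log2) of basal layer and simple keratins and of KRT75, 1 marker per array (circle, square and diamond for replicates 1, 2 and 3), TβRIII-KD left of control. The mean of the 3 arrays is drawn with its SD. KRT75 spans 8.44 to 9.03 in TβRIII-KD cells and 10.30 to 10.54 in control cells, and the groups overlap for KRT14.

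KRT14, the type I partner of KRT5, did not pass the test. Its log2 signal was 7.58, 7.83 and 7.50 on the TβRIII-KD arrays, against 7.54, 7.52 and 7.66 on the control arrays, so the groups overlapped. The log2 fold change was 0.06 (SE 0.10, 95% interval -0.17 to 0.29, limma adjusted p = 0.831), and its sign turned to -0.04 without TβRIII-KD 2. KRT15, a type I keratin of basal keratinocytes that is known as a marker of the hair follicle bulge, had 6.29, 5.97 and 6.21 on the TβRIII-KD arrays, against 6.04, 5.80 and 6.17 on the control arrays. These overlapped too, with a log2 fold change of 0.15 (95% interval -0.12 to 0.43, limma adjusted p = 0.613). Within the basal layer class, then, 1 of 3 members passed the test, and it was the type II member. KRT14 and KRT15 had mean signals of 7.60 and 6.08, under the median of all transcript clusters, 7.70, and KRT5 had 7.72. A difference in KRT14 or KRT15 may thus not have been detectable.

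Of the keratins that stratified epithelia make on wounding, only KRT16 was analysed here, with KRT6A, KRT6B, KRT6C and KRT17 not analysed here. KRT16, a type I keratin, had 7.69, 7.77 and 7.56 on the TβRIII-KD arrays, against 7.49, 7.49 and 7.60 on the control arrays. TβRIII-KD 3 lay within the control range, and the log2 fold change was 0.15 (95% interval -0.04 to 0.33, limma adjusted p = 0.451). A transcript cluster shared by KRT16 and its pseudogenes had 0.02 (limma adjusted p = 0.944). The mean signal of KRT16 was 7.60, under the median of all transcript clusters, 7.70, so a difference may not have been detectable.

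Of the 6 simple keratins, none passed the cutoff, 3 had an unadjusted limma p under 0.05 (15.6% of all genes did) and 1 had one by the methods' t-test (13.8% of all genes did). Those 3 were KRT8, KRT18 and KRT7, the keratins of luminal and other simple epithelia, and all their TβRIII-KD arrays lay below all their control arrays. Over all genes, 11.0% had every TβRIII-KD array below every control array. KRT8, the type II keratin of simple epithelia, had log2 signals of 11.62, 11.40 and 11.40 on the TβRIII-KD arrays, against 11.75, 11.97 and 11.79 on the control arrays. Its log2 fold change was -0.36 (SE 0.09, 95% interval -0.58 to -0.15, limma adjusted p = 0.0871), the smallest adjusted p of the class. The interval leaves out 0 but the adjusted p missed the threshold, and it ran from 0.0564 to 0.280 over the alternatives.

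KRT18, the type I partner of KRT8, had 10.85, 10.74 and 10.46 on the TβRIII-KD arrays, against 10.94, 11.33 and 10.93 on the control arrays. The log2 fold change was -0.38 (SE 0.14, 95% interval -0.70 to -0.07, limma adjusted p = 0.217), and -0.25 without control 2, its highest array. KRT18 has many pseudogene copies, and the probes can read several of them. A further transcript cluster annotated to KRT18 alone had a log2 fold change of -0.43 (limma adjusted p = 0.170), and a cluster shared with the microRNA gene MIR622 had -0.43 (limma adjusted p = 0.225). The 3 clusters thus gave values of like size and sign, and none passed.

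KRT7, a type II keratin of glandular and ductal epithelia, had 10.38, 10.16 and 9.97 on the TβRIII-KD arrays, against 10.40, 10.54 and 10.39 on the control arrays. The groups were separated by a gap of only 0.010, and the log2 fold change was -0.27 (SE 0.11, 95% interval -0.52 to -0.03, limma adjusted p = 0.268). KRT19, a type I keratin of simple epithelia used as a luminal marker in the breast, had 7.23, 7.45 and 7.03 on the TβRIII-KD arrays, against 7.12, 7.03 and 7.21 on the control arrays. The groups overlapped, with a log2 fold change of 0.12 (95% interval -0.14 to 0.37, limma adjusted p = 0.691), and 0.01 without TβRIII-KD 2. KRT20, a keratin of gut and urothelium, and KRT23 had log2 fold changes of 0.09 and 0.07 with overlapping groups. KRT8, KRT18 and KRT7 thus had values below 0 and KRT19, KRT20 and KRT23 values above it, and no difference between these members was tested beyond the pairs given below. KRT19, KRT20 and KRT23 had mean signals of 7.18, 5.73 and 5.89, under the median of all transcript clusters, 7.70. A difference in KRT19, KRT20 or KRT23 may thus not have been detectable.

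TβRIII-KD 3 was the lowest array for KRT75, KRT8, KRT18, KRT7 and, among the keratins below, KRT80, although for KRT8 it and TβRIII-KD 2 were nearly equal. Without it the log2 fold change was -1.58 for KRT75, -0.95 for KRT5, -0.33 for KRT8, -0.27 for KRT18, -0.17 for KRT7 and -0.23 for KRT80. KRT75 and KRT5 passed the cutoff without it (limma adjusted p = 0.000575 and 0.0149). Control 2 was the highest control array for KRT75, KRT5, KRT8, KRT18, KRT7 and KRT80. Without control 2 the log2 fold change was -1.66 for KRT75, -0.78 for KRT5 and -0.29 for KRT8. It was -0.25 for KRT18, -0.23 for KRT7 and -0.26 for KRT80. KRT75 and KRT5 passed the cutoff without control 2 as well (limma adjusted p = 0.00370 and 0.0181).

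The 14 keratins of suprabasal, mucosal and other differentiated stratified layers held no call (limma). An unadjusted p under 0.05 was found in 2 by limma (15.6% of all genes) and in 2 by the methods' t-test (13.8% of all genes). The log2 fold changes of the 14 ran from -0.33 for KRT80 to 0.27 for KRT10, with a median of 0.02. Their mean signals ran from 4.94 for KRT24 to 7.33 for KRT80, all under the median of all transcript clusters, 7.70. A difference in these 14 may thus not have been detectable. KRT80, a type II keratin, had 7.29, 7.23 and 6.97 on the TβRIII-KD arrays, against 7.39, 7.62 and 7.46 on the control arrays. These did not overlap, and the log2 fold change of -0.33 had a SE of 0.10 (limma adjusted p = 0.157). KRT10, the type I keratin of the suprabasal epidermis, was the member with the most positive value, at 6.65, 6.56 and 6.78 on the TβRIII-KD arrays, against 6.43, 6.49 and 6.26 on the control arrays. Its groups did not overlap either, and the log2 fold change of 0.27 (SE 0.09, 95% interval 0.06 to 0.48) had a limma adjusted p = 0.181. KRT2 of the upper epidermis was the other non-overlapping member, with a log2 fold change of -0.12 (limma adjusted p = 0.427). KRT1, which pairs with KRT10 in the epidermis, had a log2 fold change of 0.02 with overlapping groups.

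Of the 9 keratins of the hair follicle sheaths, KRT75 was the only call. The other 8, which are KRT25 to KRT28 and KRT71 to KRT74 of the inner root sheath, had log2 fold changes between -0.04 for KRT74 and 0.15 for KRT25. None of these 8 passed by limma, 0 had an unadjusted p under 0.05 by limma or by the methods' t-test, and all 8 had overlapping groups. The fall of KRT75 thus had no counterpart at the cutoff among the other sheath keratins. Their mean signals ran from 3.81 for KRT28 to 6.69 for KRT71, all under the median of all transcript clusters, 7.70. KRT75 had 9.58, so a difference in the other 8 may not have been detectable.

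The hair keratins, which harden the hair shaft and nail, showed no call in either direction. None of the 14 analysed passed by limma, 0 had an unadjusted p under 0.05 by limma or by the methods' t-test, and all 14 had overlapping groups. KRT81, KRT82 and KRT86 of this class were not analysed here. Log2 fold changes ran from -0.16 for KRT84 to 0.12 for KRT39, with a median of 0.03. KRT84, a type II hair keratin and the member with the smallest p, had 6.79, 7.06 and 6.81 on the TβRIII-KD arrays, against 7.08, 7.05 and 7.00 on the control arrays. TβRIII-KD 2 lay among the controls, and the 95% interval of the difference was -0.36 to 0.05 (limma adjusted p = 0.466). None of the 14 had a mean signal above the median of all transcript clusters, 7.70, and their mean signals ran from 5.12 for KRT36 to 7.27 for KRT33A. Their distance from the array's background was not analysed here, so a difference in these genes may not have been detectable.

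**Figure D2:**
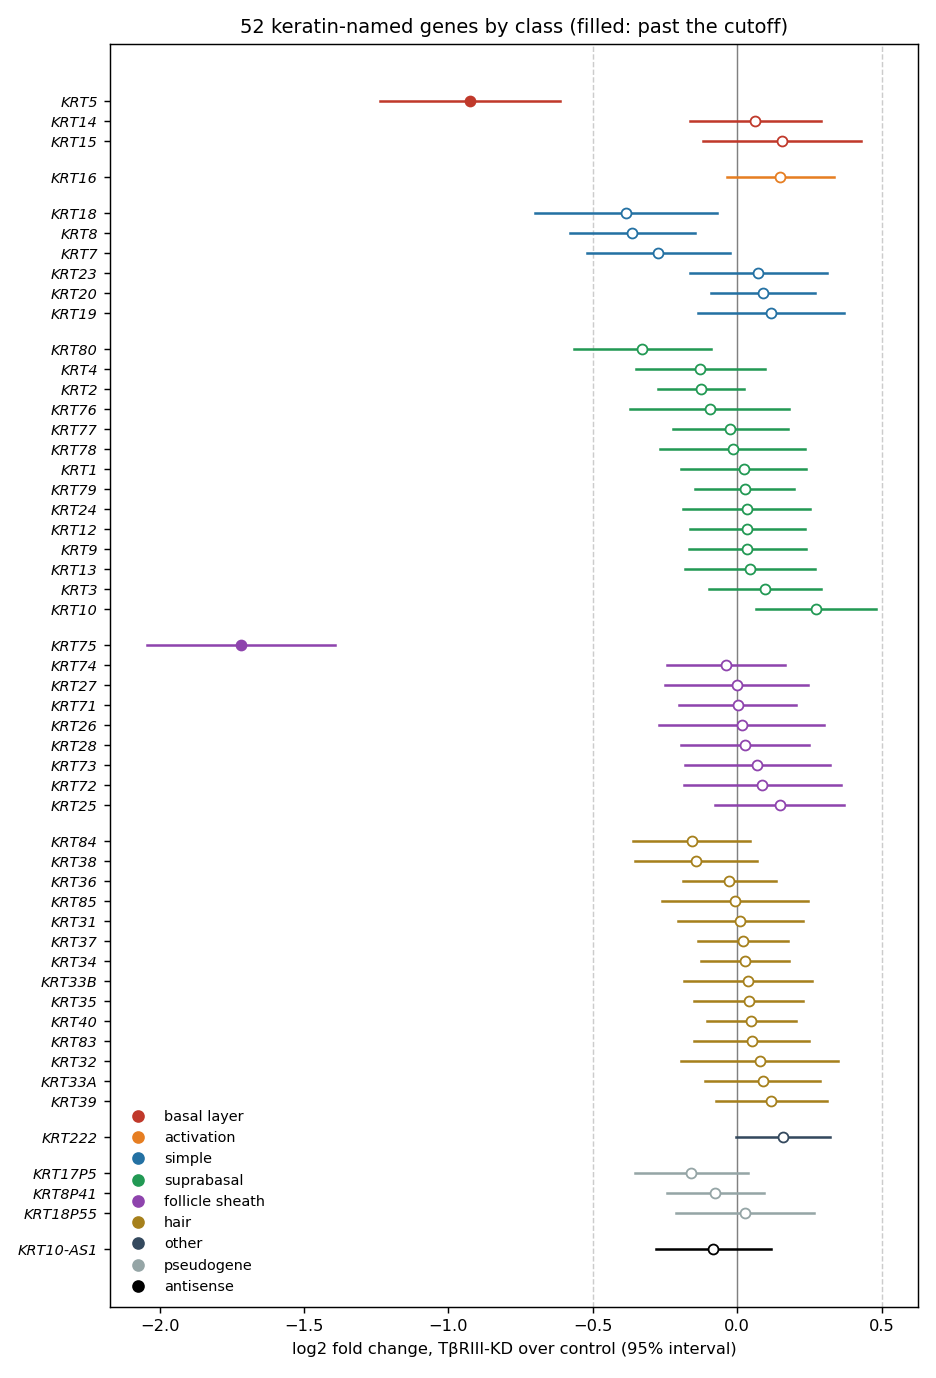
Each member's log2 fold change (TβRIII-KD over control, horizontal axis), grouped by class, with limma's 95% interval as the bar. Filled points are the members past the cutoff, KRT75 at -1.72 and KRT5 at -0.93, and no other point lies beyond the dashed lines at 0.5 in either direction.

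KRT222, a type I keratin-like gene with no class, had 3.87, 3.86 and 3.96 on the TβRIII-KD arrays, against 3.73, 3.79 and 3.69 on the control arrays. The groups did not overlap, and the log2 fold change was 0.16 (95% interval -0.01 to 0.32, limma adjusted p = 0.345). Of the 3 pseudogenes, KRT17P5 had the smallest p, with 7.14, 7.28 and 7.37 on the TβRIII-KD arrays, against 7.40, 7.51 and 7.35 on the control arrays. Its log2 fold change was -0.16 (limma adjusted p = 0.441), and its probes may read the near-identical KRT17, which was not analysed here. A further KRT17P5 transcript cluster had -0.18 (limma adjusted p = 0.394). The antisense transcript KRT10-AS1 had 7.01, 6.80 and 6.94 on the TβRIII-KD arrays, against 7.10, 6.90 and 7.01 on the control arrays, a log2 fold change of -0.08 (limma adjusted p = 0.722).

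Counted over the family, 7 members had every TβRIII-KD array below every control array and 2 had every TβRIII-KD array above. Over all genes these shares were 11.0% and 10.2%. The 7 were KRT75, KRT5, KRT8, KRT18, KRT7, KRT80 and KRT2, of which KRT18 alone is type I, and the 2 were KRT10 and KRT222, both type I. The median log2 fold change was -0.03 over the 20 type II genes and 0.04 over the 28 type I genes. Most of these members lay so near 0 that 27 of the 52 changed sign when single arrays were left out, and 8 changed sign when quantile normalization was repeated.

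The members that did not overlap were also, in part, those with a mean signal above the median, a split that depends on the probes too. Of the 52 members, 5 had a mean signal above the median of all transcript clusters, namely KRT75, KRT5, KRT8, KRT18 and KRT7, and on all 5 every TβRIII-KD array lay below every control array. Of all 9164 genes above that signal, 1411, or 15.4%, did so. KRT5 was above the median of 7.70 only through its control arrays, with means of 8.19 in control and 7.26 in TβRIII-KD cells. The split thus drew on its fall, and the count of 5 is a description only. Of the other 47 members, 4 did not overlap, or 8.51%, against 16% of all genes at or below that signal. All 5 members above the median had an unadjusted limma p under 0.05, against 19.2% of all genes above that signal. By the methods' t-test 3 of the 5 had one, against 18.1%. The cutoff called 2 of the 5 lower, against 1.98% of all genes above that signal. These counts too drew on the fall of KRT5.

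**Figure D3:**
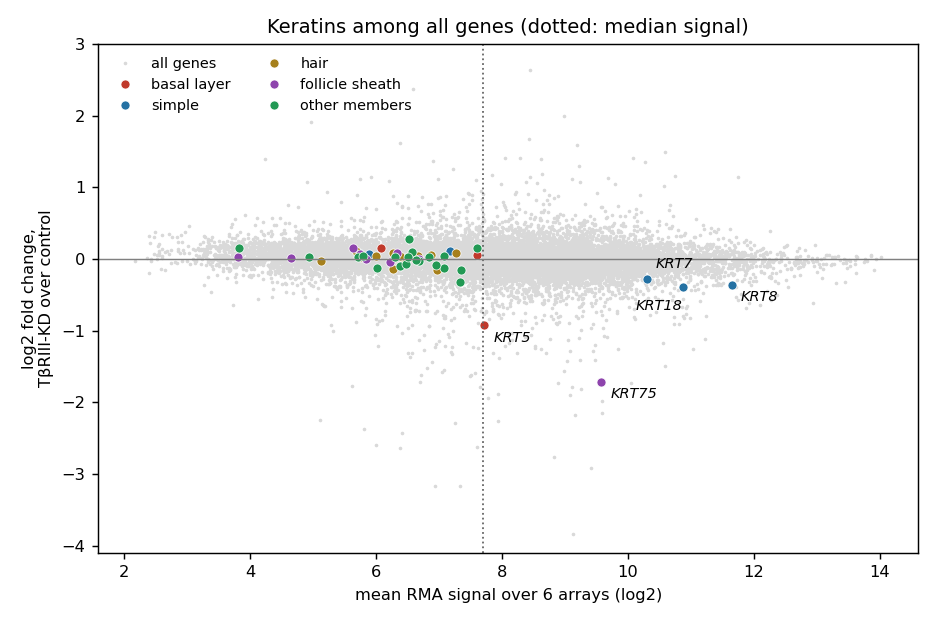
Each member's log2 fold change (TβRIII-KD over control, vertical axis) against the mean log2 signal over 6 arrays (horizontal axis), coloured by class over all genes in grey, with the median signal of all transcript clusters as a dotted line. The 5 members right of the line all lie below 0, and those left of it lie on both sides of 0. KRT5 is right of the line only through its control arrays.

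Type II and type I keratins that pair in filaments were compared within each array, as the type II signal minus the type I signal, over 7 pairs. The difference for KRT5 and KRT14 was -0.47, -0.46 and -0.20 on the TβRIII-KD arrays, against 0.39, 0.95 and 0.50 on the control arrays. The means were -0.38 ± 0.15 in TβRIII-KD cells and 0.61 ± 0.30 in control cells (SD, n = 3 each), which differ by -0.99 (exact permutation test, two-sided p = 0.1, Benjamini-Hochberg 0.233 over the 7 pairs). For KRT5 and KRT15 the change was -1.08 and for KRT7 and KRT19 it was -0.39, both with groups that did not overlap and the same exact p. The pairs with KRT14 and KRT15 share KRT5, whose log2 fold change was -0.93, beside 0.06 for KRT14 and 0.15 for KRT15. They mostly restate the fall of KRT5 and are not separate results. An exact p of 0.1 is the smallest that this design can give, so no pair could pass 0.05. These values are therefore a description of the pairs.

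For KRT8 and KRT18 the difference within arrays was 0.77, 0.67 and 0.94 on the TβRIII-KD arrays, against 0.81, 0.64 and 0.86 on the control arrays. The change was 0.02 (exact permutation test, two-sided p = 0.9), less than the spread between the arrays of a group, and the groups overlapped. The epidermal pair KRT1 and KRT10 changed by -0.25 (exact p = 0.3), the mucosal pair KRT4 and KRT13 by -0.17 (exact p = 0.4) and the corneal pair KRT3 and KRT12 by 0.06 (exact p = 0.7), all with overlapping groups.

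Among the 21 keratins measured in the chromosome 12 cluster, KRT75 and KRT5 came next to each other. They are not adjacent on the chromosome, since KRT6B, KRT6C and KRT6A lie between them and were not analysed here. The next measured genes on either side were KRT84, at -0.16, and KRT71, at 0.00 (limma adjusted p = 0.466 and 0.997). KRT8 and KRT18 lay together at one end of the cluster and KRT80 and KRT7 at the other, so that the non-overlapping members below 0 stood at both ends and at KRT75 and KRT5, with KRT2 between. The 6 genes that flank the cluster held no call, at -0.13 for NR4A1 to 0.08 for TAMALIN. On chromosome 17, none of the 28 keratin-named genes and none of the 12 keratin-associated protein genes among them was called (limma). An unadjusted p under 0.05 was found in 1 of the 28 and 2 of the 12 by limma, and in 2 and 1 by the methods' t-test. Over all genes these shares were 15.6% and 13.8%. Of the 6 genes that flank that cluster 1 was called, TNS4, a focal adhesion protein, with a log2 fold change of -0.72 (limma adjusted p = 0.00215).

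**Figure D4:**
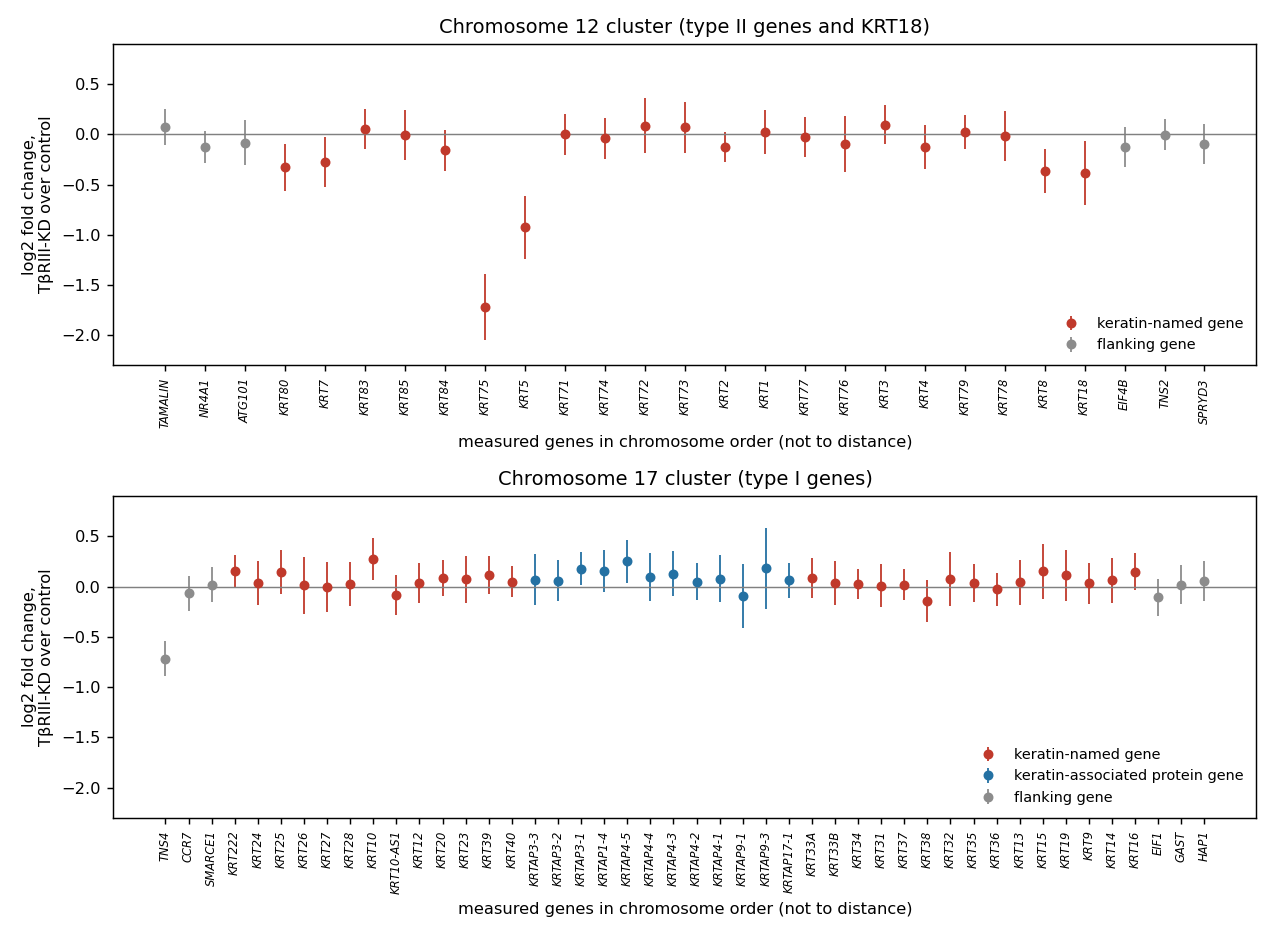
Log2 fold changes (TβRIII-KD over control, vertical axis) of the genes of the chromosome 12 and chromosome 17 keratin clusters in their genome order, with 95% intervals. KRT75 at -1.72 and KRT5 at -0.93 are next to each other among the genes measured on chromosome 12, with the KRT6 genes between them not analysed here, and no keratin on chromosome 17 is past the cutoff.

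Genes that work with keratins were read from 7 lists written from textbook knowledge, 149 genes in all. None was lower at the cutoff (1.55% of all genes were) and 1 was higher (0.772% of all genes were). That gene was HOXC13, a homeobox factor known for its control of hair keratin genes. Its log2 signal was 8.79, 8.78 and 8.61 on the TβRIII-KD arrays, against 8.06, 8.25 and 8.18 on the control arrays, with no overlap. The log2 fold change was 0.57 (SE 0.09, limma adjusted p = 0.0104). The adjusted p was 0.0591 without control 1 and 0.0512 without TβRIII-KD 2, so the call was lost without either array. HOXC13 was the only one called of 20 transcription factors known for keratin control, whose median log2 fold change was 0.09. An unadjusted p under 0.05 was found in 4 of the 20 by limma (15.6% of all genes) and in 5 by the methods' t-test (13.8% of all genes). The 14 hair keratins held no call, but none had a mean signal above the median, so a difference in them may not have been detectable.

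Of 15 other intermediate filament genes, none passed the cutoff and the median log2 fold change was 0.07. An unadjusted p under 0.05 was found in 4 by limma (15.6% of all genes) and in 3 by the methods' t-test (13.8% of all genes). SYNM, which encodes synemin, had the smallest p, with 8.63, 8.77 and 8.67 on the TβRIII-KD arrays, against 8.28, 8.39 and 8.21 on the control arrays. Its log2 fold change of 0.39 (limma adjusted p = 0.0337) lay under the fold limit. VIM, the vimentin gene that marks mesenchymal cells, was 13.00 ± 0.14 in TβRIII-KD cells and 13.07 ± 0.05 in control cells (SD, n = 3 each).

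Keratin filaments end at desmosomes and hemidesmosomes, the junctions that hold epithelial cells to each other and to the basement membrane. Of 13 desmosome genes, none passed. An unadjusted p under 0.05 was found in 4 by limma and in 3 by the methods' t-test. Over all genes these shares were 15.6% and 13.8%. JUP, the plakoglobin gene, had 10.11, 10.14 and 10.00 on the TβRIII-KD arrays, against 9.69, 9.83 and 9.61 on the control arrays, a log2 fold change of 0.37 with no overlap (limma adjusted p = 0.0513). Of 6 genes for hemidesmosomes and their ligand laminin-332, none passed. An unadjusted p under 0.05 was found in 2 by limma and in 2 by the methods' t-test, beside the same all-gene shares. ITGA6, an integrin subunit of the hemidesmosome, had 9.28, 9.03 and 8.73 on the TβRIII-KD arrays, against 8.44, 8.54 and 8.02 on the control arrays, a log2 fold change of 0.68 (limma adjusted p = 0.0734). The medians of the junction lists were 0.03 for desmosomes and 0.16 for hemidesmosomes.

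Of 9 keratin-binding proteins, none passed and 0 had an unadjusted p under 0.05 by limma or by the methods' t-test, with PLEC, the plectin gene, at 0.15 (limma adjusted p = 0.396). Of 20 cornified envelope genes, none passed and 1 had an unadjusted p under 0.05 by limma and by the methods' t-test, SPRR2E, at 0.29 (limma adjusted p = 0.112). Of 67 keratin-associated protein genes, which cross-link hair keratins, none passed, 5 had an unadjusted limma p under 0.05 and 2 one by the methods' t-test, with KRTAP19-7 at 0.30 (limma adjusted p = 0.221). The medians of these lists were 0.03, 0.07 and 0.08. Over all genes, 15.6% had an unadjusted limma p under 0.05 and 13.8% had one by the methods' t-test.

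**Figure D5:**
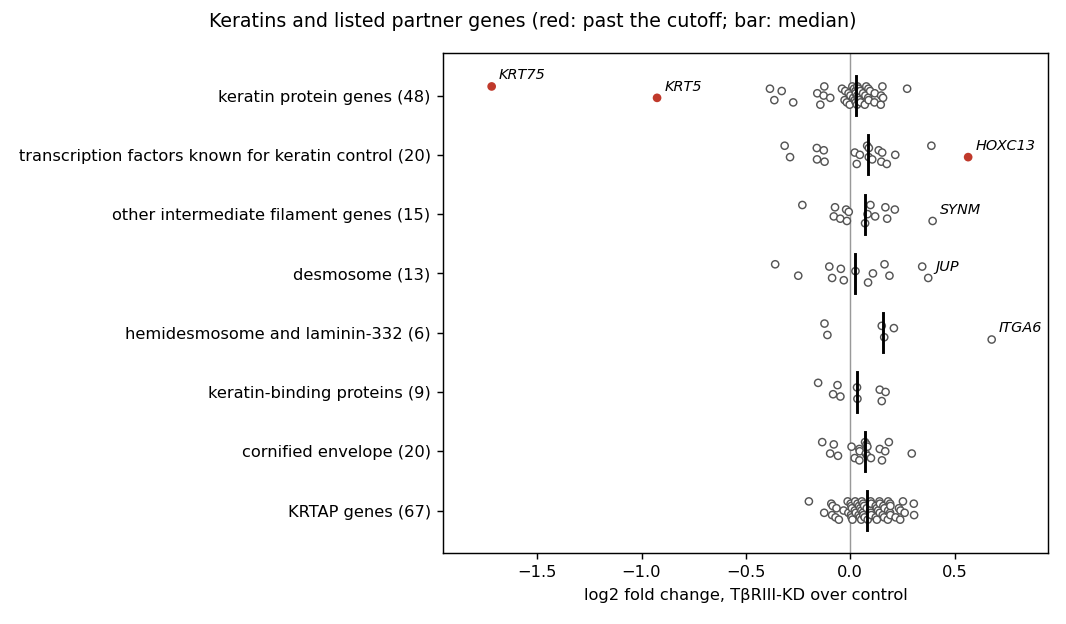
Log2 fold changes (TβRIII-KD over control, horizontal axis) of the keratin protein genes and the 7 lists of partner genes, 1 point per gene, with the list's median as a bar and genes past the cutoff in red. KRT75 and KRT5 are the only red points below 0 and HOXC13, at 0.57, the only one above it.

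The groups matched their labels at the target. TGFBR3 was 9.72, 10.01 and 10.16 on the TβRIII-KD arrays, against 10.81, 10.89 and 10.56 on the control arrays. Array medians lay between 7.67 and 7.71, and arrays correlated at 0.992 to 0.994 within TβRIII-KD, 0.995 to 0.996 within control and 0.986 to 0.992 between groups over all transcript clusters. All 5 mesenchymal markers had a mean signal above the median of all transcript clusters. Their mean was 11.44 to 11.62 in TβRIII-KD cells and 11.63 to 11.72 in control cells, with SPARC at -0.45 (limma adjusted p = 0.0189) under the fold limit. Of 6 luminal markers 1 was above that median, MUC1, which fell by 0.85 (limma adjusted p = 0.00338), while CDH1 and EPCAM had mean signals of 5.39 and 5.88. FOXA1 had 7.69, just under the median of 7.70. These signals depend on the probes and do not order the markers by abundance. The mean over the luminal markers was 6.39 to 6.54 in TβRIII-KD cells and 6.54 to 6.60 in control cells, although 4 of the 6 had log2 fold changes above 0 and the median was 0.03. The mean over 4 myoepithelial markers was 7.50 to 7.56 in TβRIII-KD cells and 7.61 to 7.70 in control cells. No keratinocyte, leukocyte or endothelial marker was called, and KRT10 was the only one of them with an unadjusted limma p under 0.05. The part of these marker differences in the keratin values was not tested.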

How the data were processed

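RNA of 6 SUM159 samples was measured on Affymetrix Human Gene 1.0 ST arrays. The deposited values are log2 signals, for which the authors ran RMA (oligo, R 3.0.1). RMA corrects the background, gives all arrays nearly the same distribution and summarizes probes by median polish. The version of oligo is not given in the sources used here. Of 22148 transcript clusters, 19129 carry 1 symbol, 1735 several and 1284 none, and 19099 of the first matched RefSeq by gene ID. The groups were compared with limma 3.58.1 under R 4.3.3 (no trend, two-sided), with Benjamini-Hochberg adjustment across the whole table. The fit was tested on simulated data. Arrays carry no count depth, so their number limits the precision. Of 55 keratin genes in the class list, 7 are not analysed here. Values on every array are given for members past the cutoff, for KRT5, KRT7, KRT8, KRT14, KRT18 and KRT19 and for the smallest p in classes without a call, and KRT10 and KRT15 were added after their values were seen. For partner lists, genes past the cutoff or the smallest p are named. KRT2, KRT20, KRT23, TNS4, the marker genes CDH1, EPCAM, FOXA1, SPARC and VIM and the myoepithelial markers were also named after their values were seen. The members and lists were chosen with earlier results of these data known. Alternatives were other moderation, array weights, the methods' t-test, filters on dim or unnamed clusters, other scaling, a replicate block, each array left out, other fold limits, mean clusters and, added after seeing the data, identical clusters counted once and other KRT18 clusters.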

Additional observations from a re-analysis of the deposited data

How the results depend on the processing

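The count of keratin genes lower in TβRIII-KD stayed at 2 in 18 of 20 alternatives, leaving out each array in turn included (lowest 2, highest 2), and was 0 by the methods' t-test with Benjamini-Hochberg adjustment and 1 at a log2 fold limit of 1. The count higher was 0 in all 20 (without single arrays 0 to 0). By that adjusted t-test KRT75, at -1.72, had an adjusted p = 0.0884 and KRT5, at -0.93, one of 0.176. KRT14, at 0.06, turned to -0.0367 without TβRIII-KD 2 and ran up to 0.13 without other single arrays. Listed partner genes at the cutoff, 1 in the text, were 2 by the unadjusted t-test, 0 by the adjusted t-test, 2 with the replicate block, 2 with no fold limit, 0 at a log2 fold limit of 1 and 0 to 2 without single arrays (0 without control 1 or TβRIII-KD 2, and 2 without TβRIII-KD 3). HOXC13 had an adjusted p between 0.00679 and 0.127 over its alternatives.

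The labels do not say whether the replicate numbers pair the arrays. Same-numbered deviations correlated at -0.06, 0.11 and 0.31, and differently numbered ones at -0.39 to 0.34. With 3 arrays a group these values cannot decide it. With the number as a replicate block, KRT75 had a limma adjusted p = 0.000474 and KRT5 one of 0.00113, and 2 keratins were lower and 0 higher. Centring arrays on their medians turned the sign of KRT71 only, and repeated quantile normalization turned 8 members near 0, with the split of negative to positive values at 28 to 24 in place of 20 to 32. The median of all genes stayed at 0.01 under each scaling. With 3 arrays a group, differences of the size of KRT8 or KRT7 may be missed, and signal over background was not analysed here.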
